A study of Mus musculus with 30 samples.

Results

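The cytosolic ribosomal protein genes are the genes that encode the protein subunits of the ribosome in the cytoplasm. Members were taken by symbol: every row of the table named Rpl or Rps plus a number (with an a, x, l or y suffix where present), together with Rplp0, Rplp1, Rplp2 and Rpsa. Kinases of the Rps6k family, pseudogene symbols ending in -ps and mitochondrial subunits (Mrpl, Mrps) were left out. The rule used no measured value. It found 84 members among the 24062 symbols that occupy a single row, 51 of the large subunit and 33 of the small subunit. Of these, 81 reached at least 1 FPKM in at least 2 libraries and were tested (48 large, 33 small). FPKM is fragments scaled by transcript length and by the total of mapped fragments, so levels of different genes can be compared per length.

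Expression was measured by RNA-seq in microglia of the caudal lumbar spinal cord of C57BL/6J mice, isolated with magnetic beads against CD11b, an integrin that neutrophils and monocytes also carry. The 9 control libraries came from mice with no treatment or injury (naive, n = 2), saline on the fixed schedule (n = 4) or saline on the escalating schedule (n = 3). Nerve-injured mice gave 2 libraries per group. SNT groups had the sciatic nerve cut and were sampled 1, 2, 4 or 7 days after injury (dpi). CCI groups, with a chronically constricted nerve, were sampled on day 2 or 7, and the SNI group, with a spared nerve injury, on day 7. Chronic morphine was given on a fixed (n = 4) or an escalating (n = 3) schedule. The labels name no transgene or deletion in any group. The labels give no doses, ages or sham surgery, and they do not say that each library was a separate animal, so every p-value measures only the spread between these libraries.

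A ribosome has a large and a small subunit, each built from ribosomal RNA and one copy of most of its proteins, so cells make these proteins in near-equal numbers. Their mRNAs are short, abundant and stable, and most begin with a run of pyrimidines (C and T), the 5′ terminal oligopyrimidine or TOP motif, through which the kinase mTOR and the binding protein Larp1 control how many of them are translated. In microglia, as in other macrophages, ribosome production accompanies growth, proliferation and activation.

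The sequence at the transcription start is shown first, for some of the members named in the results. Whether it bears on how the members vary together was not tested. RefSeq promoter entries (GRCm38.p6) matched 63 of the 84 members, in 75 windows. Each window printed here runs 5′ to 3′ from 10 bases before the annotated start to 20 bases after it, so it ends inside the first transcribed bases, and capitals mark a run of 8 or more C and T.

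Rpl38, chr11:114668570-114668599, plus strand: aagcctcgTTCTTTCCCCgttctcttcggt

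Rpl18, chr7:45718061-45718090, plus strand: ctcgcaggccgCTCTTTCCCCgcccactcc

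Rplp2, chr7:141447641-141447670, plus strand: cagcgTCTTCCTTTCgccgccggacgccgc

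Rps6, chr4:86857348-86857377, minus strand: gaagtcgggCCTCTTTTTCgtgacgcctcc

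Rpl22l1, chr3:28805498-28805527, plus strand: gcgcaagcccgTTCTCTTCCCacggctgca

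Rps26, chr10:128626487-128626516, minus strand: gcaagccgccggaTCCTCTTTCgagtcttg

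Rpl35, chr2:39005112-39005141, minus strand: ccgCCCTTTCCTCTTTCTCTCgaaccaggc

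Rpl6, chr5:121204491-121204520, plus strand: acctcccgtcattgcttatagaccggaagc

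Rpl10, chrX:74270806-74270835, plus strand: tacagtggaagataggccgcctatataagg

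Rpsa, chr9:120127756-120127785, plus strand: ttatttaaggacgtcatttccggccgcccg

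Rps2, chr17:24720053-24720082, plus strand: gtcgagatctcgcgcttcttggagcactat

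Rpl7l1, chr17:46782637-46782666, minus strand: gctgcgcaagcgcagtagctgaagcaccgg

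The first 7 of these windows hold such a run, of 9 to 18 bases, and the last 5 do not. The windows of Rpl22, Rpl37, Rpl4 and Rps28 were also looked at but are not printed. Their longest runs were 3 to 6 bases, so the printed windows do not measure how often members hold a run. A run of 8 or more C and T lay in 24 of the 75 member windows, 32%, against 11.2% of the 21263 windows of the same length from all protein-coding genes. In the longer RefSeq entry (250 bases before the start to 50 after), CCGGAAG, the core of an ETS-family site, was found on either strand in 36% of member windows and 11.6% of all windows. AAGATGGC, the core of the YY1 motif, was found on either strand in 10.7% and 3.05%. The 2 motifs were searched separately and can overlap by the letters AAG. An annotated start can differ from the start used in these cells, so a missing run says only that these letters are not in this window.

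The files give no read counts. FPKM steps of the lowest genes imply 1.74 to 21.4 megafragments (M, the unit of the FPKM total) per library, with a median of 8.67 M, and 6 libraries fell under 3 M. These depths are estimates. From 8005 to 10427 genes reached 1 FPKM. The 3 libraries with the fewest such genes were SNT 1 dpi replicate 1 (8005), SNT 7 dpi replicate 1 (8466) and SNT 2 dpi replicate 2 (8763), and they were also the 3 with the highest member level. Microglial markers were present in every library: Cx3cr1 was at least 345 FPKM and P2ry12 at least 562, while Itgam fell to 49.1 and Sall1 to 19.0. The mean log2(FPKM + 1) of the 10 microglial markers was lowest in an SNT 2 dpi library (8.395), against 9.08 to 9.61 in controls. Neutrophil transcripts reached high levels. S100a8 ranged from 326 to 30884 FPKM and S100a9 from 453 to 20749.9 FPKM. The T-cell gene Cd3e was listed at 0 in 27 of 30 libraries and the endothelial gene Cldn5 in 26. In bulk RNA, more cells of a type and more RNA per cell cannot be told apart.

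Levels spanned a wide range. Averaged over libraries, 71 members were at 100 FPKM or more and 79 at 10 FPKM or more. The highest mean on the log2(FPKM + 1) scale belonged to Rps29, a zinc-binding protein of the small-subunit head, at 9.74. Its FPKM had a lowest value of 336, a median of 643 and a highest value of 5620 over the 30 libraries. Rps9 (9.69), Rplp1 (9.65), Rps4x (9.33) and Rpl13 (9.31) followed. Rps9 was the steadier of the leading pair, with a lowest, median and highest FPKM of 474, 802 and 1872. Rplp0, the base of the ribosomal stalk, which recruits translation factors, ranged from 406 to 1264 FPKM, while its partners Rplp1 and Rplp2 ranged from 337 to 3590.4 and from 151 to 1136 FPKM.

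In all, 6 members were listed at 0 in at least 1 library. Rpl10l and Rpl26 were at 0 in all 30 and Rpl3l in 27, and these 3 were not tested. Rpl39l was at 0 in 8, Rps27 in 10 and Rpl30 in 22. A listed 0 in a table without counts can be a failed estimate, and Rps27, Rpl26 and Rpl30 encode subunits that every ribosome contains. Rps27rt, a near copy of Rps27 outside the symbol rule, was above 0 in every library, at 136 to 2983 FPKM. How the authors' tool shared reads between such copies was not given in the sources used here, so levels of members with close copies or pseudogenes are uncertain.

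Members with a paralog showed how unequal such pairs were. Rpl22l1, a paralog of Rpl22, stood at a median of 0.989 times its partner's FPKM and was the higher of the pair in 15 of 30 libraries, with ratios from 0.517 to 2.10. Ratios above 1 were found in all 3 escalating-saline libraries and in both libraries of SNT 1 dpi and of SNT 4 dpi. Rpl7l1, a relative of Rpl7, reached 0.00970 to 0.119 of Rpl7. Rps4l, which GENCODE annotates as a transcribed processed pseudogene, reached 0.0119 to 0.0930 of Rps4x. Rpl39l reached at most 0.00833 of Rpl39. The log2 ratio of Rpl22l1 to Rpl22 was -0.33 ± 0.47 (SD, n = 3) with escalating morphine and 0.56 ± 0.11 (SD, n = 3) with escalating saline, and the 3 morphine values lay below the 3 saline values. The two-sided exact permutation p was 0.1, the smallest that 3 against 3 allows, and 0.2 after adjustment over 4 such tests. With fixed morphine that ratio was -0.10 ± 0.18 (SD, n = 4) against 0.35 ± 0.72 (SD, n = 4) with fixed saline (exact permutation p = 0.371, adjusted 0.495). The log2 ratio of Rpl7l1 to Rpl7 was -3.62 ± 0.46 against -4.36 ± 0.46 (SD, n = 4 each) on the fixed schedule (exact permutation p = 0.0857, adjusted 0.2) and -4.91 ± 1.03 against -4.58 ± 0.45 (SD, n = 3 each) on the escalating one (exact permutation p = 0.7, adjusted 0.7).

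The 81 tested members varied together from library to library. Their mean log2(FPKM + 1) ran from 6.70 to 8.88, with a median of 7.37, and they held 3.71% to 13% of all FPKM in a library. For each member, the correlation with the mean of the other members over the 30 libraries was taken as a description; libraries share their depth and composition across all members. It had a median of 0.90 over the tested members, exceeded 0.9 for 40 of them and fell under 0.5 for 6. Those 6 were Rpl7l1 (-0.76), Rpl30 (-0.11), Rpsa (0.20), Rps2 (0.21), Rpl3 (0.26) and Rpl39l (0.33). Among members averaging at least 10 FPKM, those that kept closest to the member mean included Rps10, Rpl10a and Rpl19, with an SD of the difference from it of 0.15 to 0.20. Rps27, with its zeros, departed most (3.37), then Rpl7l1 (1.02), Rpsa (0.72), Rps2 (0.67) and Rpl3 (0.66). Rpsa is a small-subunit protein also known as the laminin receptor, Rps2 lies near the mRNA entry and Rpl3 shapes the peptidyl transferase centre.

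**Figure D1:**
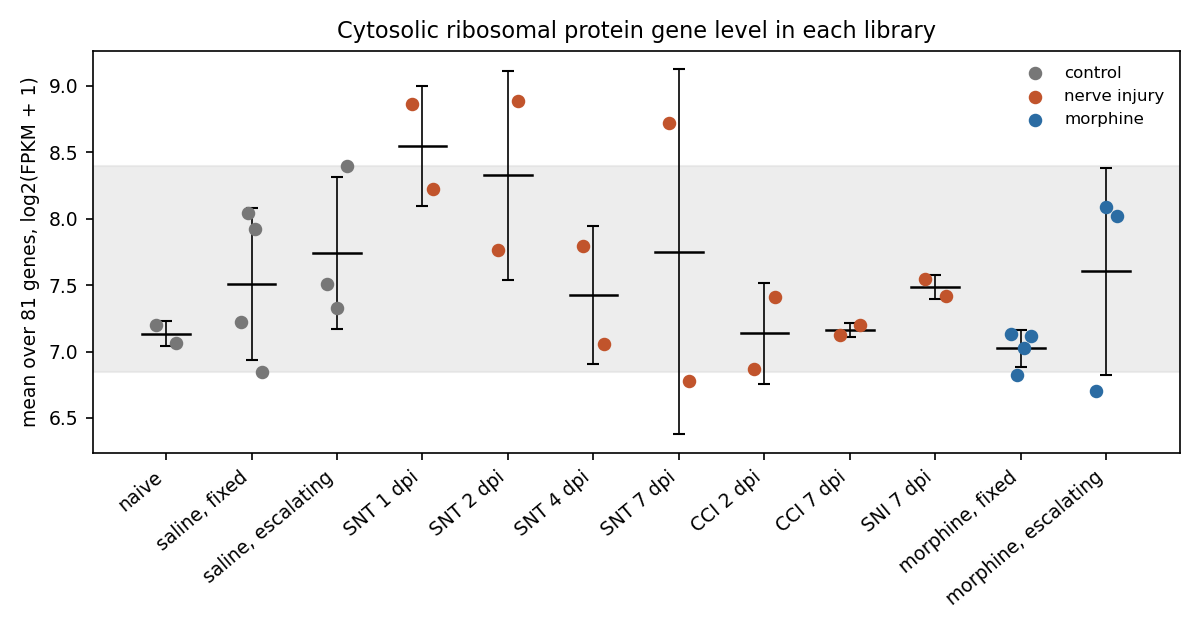
Mean log2(FPKM + 1) of the 81 tested ribosomal protein genes (vertical axis) in each of 30 libraries (points) by group (horizontal axis). Black lines and bars are group means and SD, and the grey band spans the 9 control libraries, 6.84 to 8.39. Libraries of SNT 1, 2 and 7 dpi supply the 3 highest points, 8.72 to 8.88, and an escalating-morphine library the lowest, 6.70.

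**Figure D2:**
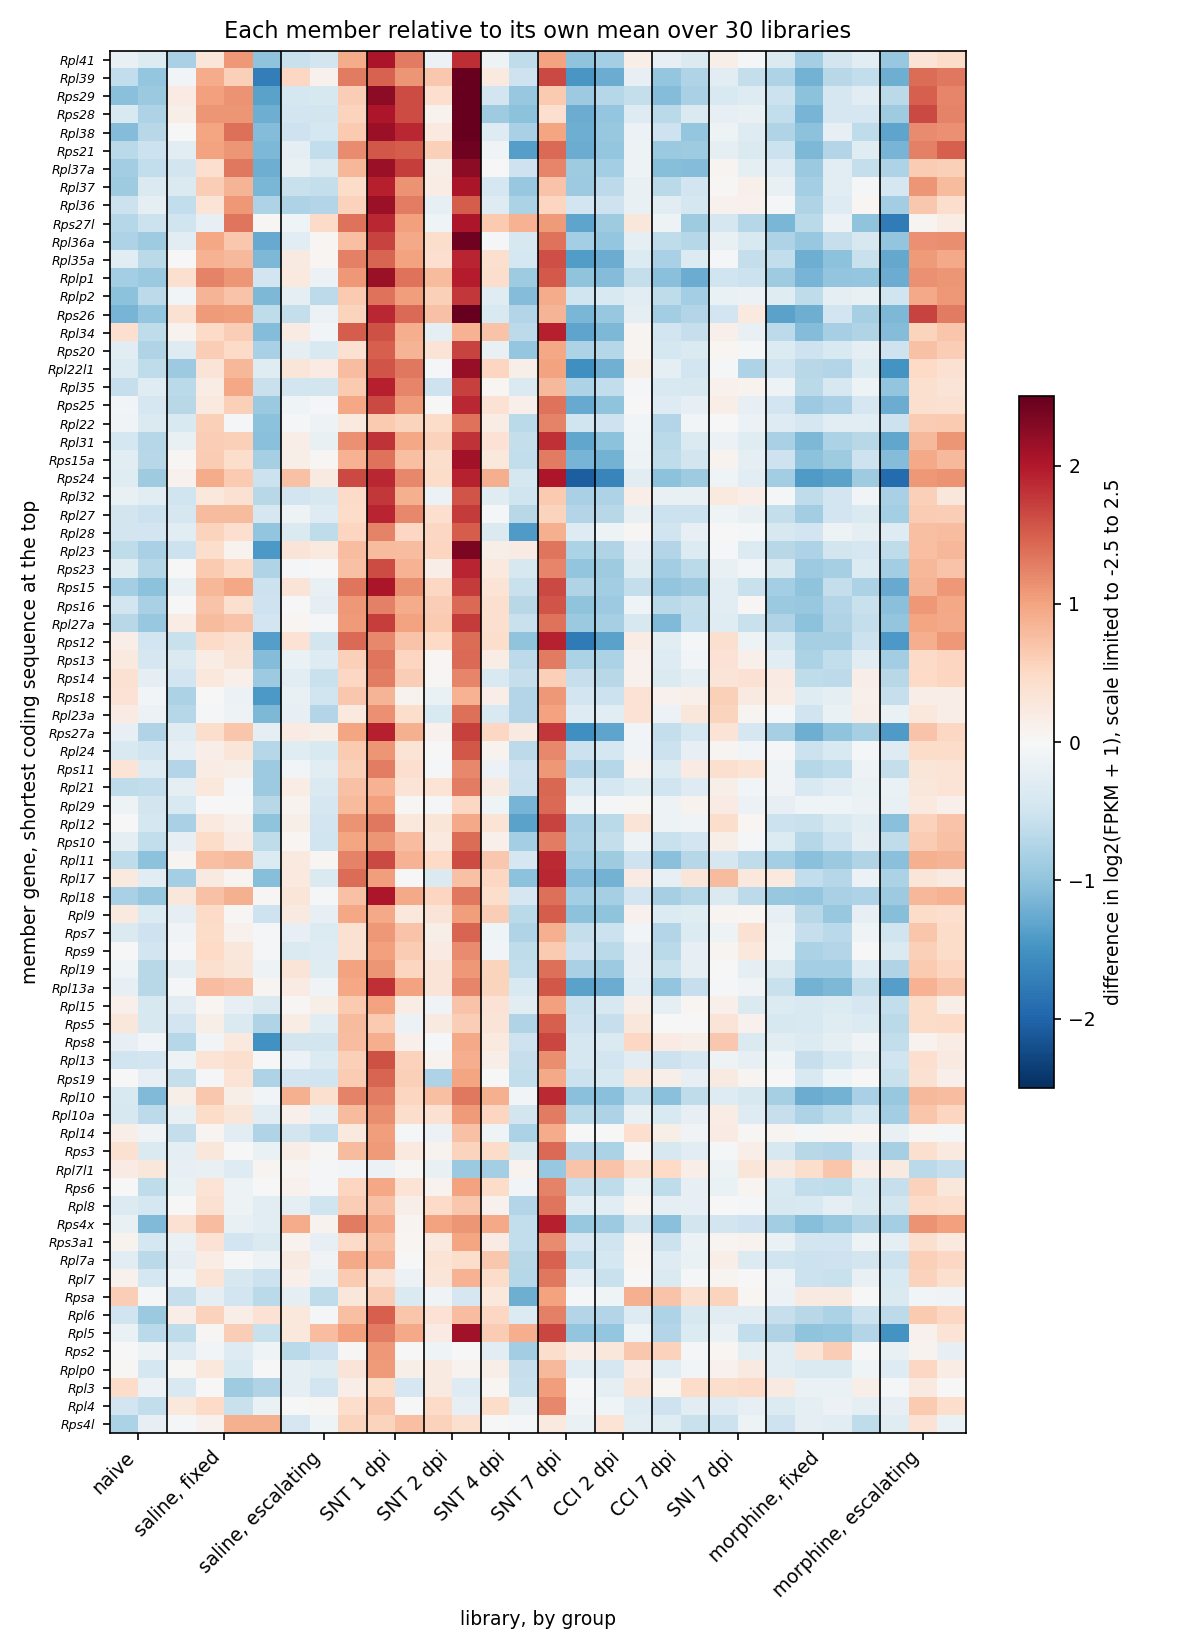
Each member's log2(FPKM + 1) minus its own mean over the 30 libraries (colour, red higher, blue lower), with libraries in columns by group and 76 members in rows from the shortest coding sequence at the top to the longest at the bottom. Rps4l, with no coding sequence, is the last row, and Rps27, Rpl30 and Rpl39l are among the members not drawn, because of listed zeros. Columns are largely of 1 colour, and the colours are stronger towards the top.

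The non-members most like the member mean over the 30 libraries included Gm5148 (r = 0.97), Gm15772 (0.97), Gm12191 (0.96), Rpl34-ps1 (0.95), Uqcrh (0.94), Rps15a-ps6 (0.94), Cox4i1 (0.93), C330021F23Rik (0.93) and Atp5g2 (0.92). Rpl34-ps1 and Rps15a-ps6 are pseudogenes of members by their symbols. Uqcrh, Cox4i1 and Atp5g2 encode small subunits of respiratory complex III, cytochrome oxidase and ATP synthase. Their likeness is a description over libraries and carries no test.

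Short members varied more than long ones. GENCODE vM21 gave a coding length for 80 of the 81 tested members. The 26 shortest (138 to 390 nt) had a median SD over the libraries of 0.94 log2 units, the middle 28 (399 to 582 nt) of 0.69 and the 26 longest (588 to 1257 nt) of 0.53. A length contrast of means was taken in other genes. From the mean log2(FPKM + 1) of 750 non-members of at most 450 coding nt, that of 1380 non-members above 3000 nt was subtracted. This difference ranged from 0.51 to 2.91 among libraries. Its correlation with the member mean over the 30 libraries was 0.85, a description over libraries that share depth and preparation. With the like contrast within members, the mean of the 26 shortest minus that of the 26 longest, its correlation was 0.72. The part of this length contrast in the group differences below was not tested.

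**Figure D3:**
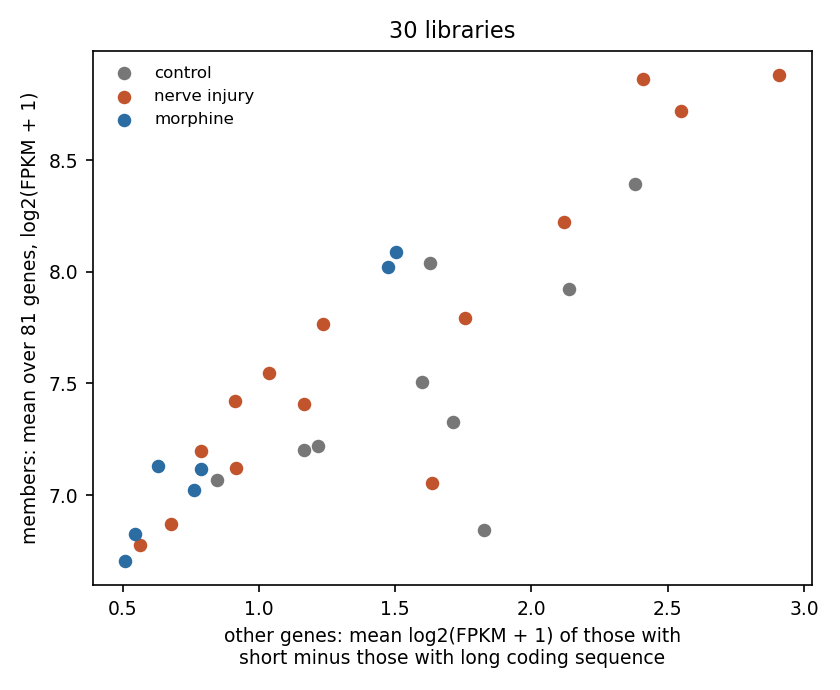
One point per library (30), coloured by kind of group: the difference in mean log2(FPKM + 1) between other genes of short (at most 450 nt) and long (over 3000 nt) coding sequence on the horizontal axis and the member mean on the vertical axis. Libraries with more signal from other short genes have higher member means, with r = 0.85.

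Pairs of libraries were compared over the 78 members above 0 everywhere, by the median absolute log2 difference. It was 0.085 to 2.00 within groups (26 pairs, median 0.51) and 0.094 to 2.18 between groups (409 pairs, median 0.62). SNT 7 dpi replicate 2 and CCI 2 dpi replicate 1 formed the second closest of all 435 pairs (0.094), closer than all but 1 pair of replicates. The libraries of SNT 7 dpi stood far apart, at member means of 8.72 and 6.78, so the group mean of 7.75 describes neither.

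The injury groups were each compared with all 9 controls, to ask how the transcriptome of spinal microglia changes after peripheral nerve injury. At 1 day after transection, 78 of the 81 members had a positive difference, with a median of 1.05 log2 units, while the median over all 11759 tested genes was -0.25. All 33 small-subunit members were positive (median 1.05), and 45 of 48 large-subunit members (median 1.05). No member passed limma's test at an adjusted p of 0.05, and the background of calls was 0.017% higher and 0% lower. At an unadjusted p under 0.05, 45 members were higher and 0 lower, against 4.37% higher and 11.8% lower over all genes. In 26 members, 32.1%, both injury libraries lay above all 9 controls, against 1.9% of all genes tested, and in 0 below them (background 4.33%).

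Rpl36, a small large-subunit protein, had the lowest p. Its FPKM was 938 and 507 in the injured libraries, and its lowest, median and highest control values were 121, 144 and 441. The groups did not overlap, and the log2 difference was 1.91 ± 0.46 (SE), adjusted p = 0.129 by limma with Benjamini-Hochberg adjustment. Rpl37a read 1155 and 853 FPKM against control values of 109, 199.6 and 639 (2.07 ± 0.57 (SE), adjusted p = 0.138). Rpl38, which mouse genetics ties to translation of Hox mRNAs, read 464 and 389.9 FPKM against 49.0, 76.8 and 272 (2.10 ± 0.61 (SE), adjusted p = 0.139). Both libraries stood above every control for these genes. Rps29 read 4041 and 2652 FPKM against 336, 649 and 1864 (2.07 ± 0.59 (SE), adjusted p = 0.138), and Rpl27 read 428 and 263 FPKM against 78.3, 91.4 and 199 (1.57 ± 0.41 (SE), adjusted p = 0.131). Long members had smaller differences. Rplp0 read 1264 and 664 FPKM against 442, 609 and 757, so that 1 library overlapped the controls (0.68 ± 0.32 (SE), adjusted p = 0.301), and Rpl3 read 576 and 313 FPKM against 225, 361 and 575 (0.27 ± 0.35 (SE), adjusted p = 0.71). After Rpl36, the lowest p-values belonged to Rpl27, Rpl37a, Rpl35 (1.72 ± 0.48 (SE), adjusted p = 0.138) and Rpl37 (1.75 ± 0.49 (SE), adjusted p = 0.138), all of the large subunit. The median difference was 1.42 in the shortest, 1.05 in the middle and 0.66 in the longest members.

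Other gene groups of the same machinery were read in the same comparison. The 4 tested ribosomal proteins with other symbols were all positive at 1 dpi (median 1.31), and so were all 48 small subunits of oxidative phosphorylation (median 1.01). Mitochondrial ribosomal proteins were positive in 57 of 77 (median 0.26). Of 61 ribosome biogenesis genes, which make ribosomal RNA and assemble subunits, 21 were positive (median -0.23), and of 27 mTOR and TOP regulators 6 (median -0.40). None of the genes in these lists passed the test at 1 dpi. Elongation and termination factors were positive in 6 of 10 (median 0.20). Neutrophil markers were negative in 10 of 10 and monocyte markers in 5 of 5 tested, with per-library list means of 5.08 to 8.32 against 7.80 to 10.4 in controls for neutrophils and 0.768 to 4.41 against 4.53 to 7.03 for monocytes. The short-minus-long contrast of other genes was 2.12 to 2.41 in these libraries. The parts of these markers and of the length contrast in the member difference were not tested.

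With the number of detected genes as a covariate the 1 dpi median was 0.25, and with the non-member length contrast it was 0.47. Without SNT 1 dpi replicate 1 it was 0.74, and without replicate 2 it was 1.4. The library left alone is then assumed to vary like the other groups.

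At 2 dpi after transection, 78 of 81 members were again positive (median 0.84, all genes -0.23), but no member passed the test (background 0% in either direction) and none had both libraries above all controls (background 0.383%) or below them (1.91%). Before adjustment, at p under 0.05, 23 members were higher and 0 lower, against 1.49% and 5.84% of all genes. Rps26, of the small-subunit platform, had the lowest p, at 288 and 1223 FPKM against control values of 77.0, 156 and 362 (1.83 ± 0.57 (SE), adjusted p = 0.67 by limma). Replicate 2 held the highest member mean of all libraries (8.88) and replicate 1 lay inside the control range (7.77). Rps29 showed the same split, at 1141 and 5619.9 FPKM. Next in order of p came Rpl23, Rpl28, Rps29 and Rplp2, with log2 differences of 1.62, 1.21, 1.70 and 1.35 and an adjusted p of 0.67 for each. Both libraries had an implied depth under 3 M fragments. Without replicate 2 the median was 0.27, and without replicate 1 it was 1.46 with 18 members called, all higher, beside 1.28% of all genes higher and 8.44% lower. Markers of neutrophils were negative in 10 of 10 (median -1.18), monocyte markers in 5 of 5 (-0.96) and microglial markers in 8 of 10 (-0.48), and their part in the member difference was not tested.

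At 4 dpi the members lay near the controls. Positive differences were found in 17 of 81 (median -0.13, but -0.54 without replicate 1, 0.27 without replicate 2 and 0.19 against the naive libraries alone), no member passed (background 0% either way) and no member's libraries stood clear of the controls, against 2.39% of genes higher and 1.16% lower. With p under 0.05 unadjusted, 1 member was higher and 0 lower (all genes 1.39% and 0.944%). Rpl30 had the lowest p but is listed at 0 in most controls, and next came Rpl28, a large-subunit protein, at 108 and 51.7 FPKM against control values of 70.3, 108 and 204 (-0.70 ± 0.40 (SE), adjusted p = 1 by limma). Rps28, Rpl5 and Rpl29 followed, with an adjusted p of 1. At 7 dpi, 68 of 81 were positive (median 0.26), no member passed (background 0.204% higher, 0% lower) and 1 member, Rps2, had both libraries above all controls (background 3.91%) and 0 below (0.672%). At an unadjusted p under 0.05, 2 were higher and 0 lower (all genes 5.74% and 3.14%). Rps2 read 295 and 242 FPKM against 135, 196 and 220.3 (0.54 ± 0.29 (SE), adjusted p = 0.598 by limma). Rpl3 had the lowest p, at 864 and 405 FPKM against 225, 361 and 575 (0.74 ± 0.35 (SE), adjusted p = 0.546). Rpl14, Rpl29, Rps2 and Rpl8 came next, with log2 differences of 0.72, 0.78, 0.54 and 0.65. The 7 dpi median was -0.69 without replicate 1 and 1.30 without replicate 2, and -0.01 after quantile normalization, so its direction rested on 1 library. Without replicate 2, 5 members were called, all higher, beside 2.35% of all genes higher and 6.21% lower. At both times neutrophil markers were negative in 10 of 10 (medians -1.19 at 4 dpi and -0.77 at 7 dpi). At 7 dpi neuron markers were positive in 6 of 6 (median 0.83), as were oligodendrocyte markers (0.68), and the part of these markers was not tested.

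After constriction injury most member differences were negative. At 2 dpi, 12 of 81 were positive (median -0.38, all genes 0.17), and at 7 dpi 16 of 81 (median -0.37, all genes 0.17). No member passed at either time (background 0.0085% higher at 2 dpi, otherwise 0%). Before adjustment, at p under 0.05, 1 member was higher and 0 lower at 2 dpi (all genes 8.44% and 2.3%), and 0 higher and 1 lower at 7 dpi (all genes 8.23% and 1.51%). At 2 dpi the libraries of 2 members lay above all controls (background 8.66%) and of 0 below (1.6%). These were Rps2, at 261 and 344 FPKM against 135, 196 and 220.3 (0.71 ± 0.29 (SE), adjusted p = 0.422 by limma), and Rpl7l1, at 44.7 and 36.2 FPKM against 21.3, 26.1 and 33.3 (0.58 ± 0.34 (SE), adjusted p = 0.532). At 7 dpi the libraries of 3 members lay below all controls (background 0.927%), Rplp1, Rps24 and Rpl27, and of 0 above (8.4%). Rplp1 read 387 and 337 FPKM against 421, 947 and 1901 (-1.34 ± 0.59 (SE), adjusted p = 0.443 by limma). Rpsa read 379 and 306 FPKM against 146, 196 and 356, higher on average but overlapping (0.78 ± 0.40 (SE), adjusted p = 0.543). The lowest p-values belonged to Rps2, Rpl10, Rpl13a, Rps24 and Rplp1 at 2 dpi, and to Rplp1, Rpsa, Rpl10, Rpl13a and Rpl18 at 7 dpi. Set against the 2 naive libraries alone, the medians were 0.05 at 2 dpi and 0.01 at 7 dpi, so the lower level was not seen against naive libraries alone. Ribosome biogenesis genes were positive in 58 of 61 at 2 dpi (median 0.75) and 52 of 61 at 7 dpi (median 0.37), and none passed the test. Neutrophil markers were negative in 10 of 10 at 2 dpi (median -1.54) and 9 of 10 at 7 dpi (-1.25), with list means of 6.80 to 7.88 and 7.33 to 8.24 against 7.80 to 10.4 in controls. Monocyte markers were negative in 4 of 5 (median -1.53) and 5 of 5 (-0.82). The part of these markers in the member difference was not tested.

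After spared nerve injury at 7 dpi, 40 of 81 members were positive (median -0.01), none passed (background 0% either way) and none stood clear of the controls (background 1.52% higher, 1.56% lower). With p under 0.05 unadjusted, 0 were higher and 0 lower (all genes 2.41% and 1.66%). TPM rescaling and quantile normalization gave medians of 0.20 and 0.12. Against the naive libraries alone, 78 of 81 members were positive (median 0.36), with none called (background 0% either way). Of the neutrophil markers 9 of 10 were negative (median -0.91), and of the monocyte markers 5 of 5 (-0.76), and their part was not tested. Rpl3 had the lowest p, at 572 and 588 FPKM against 225, 361 and 575 (0.72 ± 0.35 (SE), adjusted p = 0.999 by limma), followed by Rpl23a, Rps18, Rpsa and Rpl18.

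Injury models were also compared directly at matched times. At 2 dpi transection exceeded constriction in 76 of 81 members, with a median of 1.18 (all genes -0.42). No member passed (background 0% either way), and at an unadjusted p under 0.05, 40 were higher and 1 lower (all genes 3.04% and 14.9%). Both transection libraries lay above both constriction libraries in 52 members, 64.2%, against 10.8% of all genes, and below them in 2, Rpl7l1 and Rps2 (background 34.8%). Rps26 had the lowest p, at 288 and 1223 FPKM after transection and 89.6 and 148 after constriction (2.35 ± 0.73 (SE), adjusted p = 0.22 by limma), then Rps29 at 1141 and 5619.9 against 519 and 566 FPKM (2.22 ± 0.75 (SE), adjusted p = 0.22). Rplp1, Rpl27 and Rpl23 followed, with log2 differences of 2.21, 1.54 and 1.93. The median was 0.61 without SNT 2 dpi replicate 2 and 1.78, with 26 members called, all higher, without replicate 1, where 2.07% of all genes were called higher and 13.1% lower. Implied depth was 1.74 and 2.71 M fragments after transection and 12.3 and 21.4 M after constriction, and depth and injury model cannot be told apart here. At 7 dpi the median of transection over constriction was 0.63, no member passed (background 0% either way), and 6 members, 7.41%, stood clear on the higher side against 12.9% of all genes, and 0 on the lower side against 11.2%. At an unadjusted p under 0.05, 1 was higher and 0 lower (all genes 2.36% and 4.06%). Leaving out SNT 7 dpi replicate 1 gave a median of -0.33, and leaving out replicate 2 gave 1.62 with 28 members called, all higher, beside 3.25% of all genes higher and 11.9% lower. Neuron markers were positive in 6 of 6 (median 1.21), oligodendrocyte markers in 6 of 6 (0.72) and astrocyte markers in 5 of 6 (0.82), none called. The neuron list mean was 1.71 to 2.43 after transection and 0.447 to 1.06 after constriction, without overlap, and its part was not tested. Constriction lay below spared nerve injury at 7 dpi in 73 of 81 members (median -0.37). None passed (background 0% either way), and 56 members, 69.1%, had both constriction libraries below both spared-nerve libraries, against 4.82% of all genes, and 0 had them above (26.1%). Before adjustment, at p under 0.05, 0 were higher and 0 lower (all genes 1.08% and 0.017%). Rps7, a small-subunit protein, read 139 and 182 FPKM after constriction against 211 and 304 after spared nerve injury (-0.67 ± 0.47 (SE), adjusted p = 1 by limma), and Rps9 read 518 and 714 against 861 and 983 FPKM (-0.60 ± 0.44 (SE), adjusted p = 1). Rpl37a, Rps14 and Rpl30 completed the 5 lowest p-values. With 2 libraries on each side, gaps of this size stayed within the spread that limma pooled over groups, and the median was -0.25 without CCI 7 dpi replicate 1. All 10 neutrophil markers were negative (median -0.43), as were all 6 astrocyte markers (-0.28), and their part was not tested.

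Fixed-schedule morphine was the 1 comparison in which members passed the test. It also had the most calls over all 11759 genes of these comparisons, 1595 higher and 524 lower. Against fixed saline, 5 of 81 members fell and none rose: Rpl18, Rpl6, Rpl10, Rps4l and Rplp1. That is 6.17% of members, near the background of 4.46% of genes lower, while 13.6% of genes were higher. The median member difference was -0.46 and 68 of 81 were negative, while the median over all genes was 0.22. In 20 members, 24.7%, all 4 morphine libraries lay below all 4 saline libraries, against 7.49% of all genes. In 2 members, Rpsa and Rpl7l1, the morphine libraries lay above (background 22.1%). With p under 0.05 unadjusted, 15 were lower and 3 higher (all genes 8.88% and 25.9%).

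Rpl18, a large-subunit protein encoded at chr7:45715457-45720836 (GRCm38, GENCODE vM21), read 344, 469, 522 and 289 FPKM with saline and 147, 144, 160.1 and 166 with morphine. The 4 morphine values lay close together and under every saline value, and the difference was -1.35 ± 0.34 (SE), adjusted p = 0.0184 by limma. Rpl6 (chr5:121204481-121209241), a large-subunit protein, read 279.7, 373, 278 and 322 FPKM with saline and 167, 153, 143 and 171 with morphine (-0.97 ± 0.26 (SE), adjusted p = 0.0247). Rpl10 (chrX:74270812-74273135), needed for a late step of large-subunit assembly and for subunit joining, read 498, 721, 501 and 431 FPKM with saline and 254, 191, 199 and 255 with morphine (-1.24 ± 0.34 (SE), adjusted p = 0.0257). Neither gene's groups overlapped. Rplp1 (chr9:61913284-61914542), a stalk protein, read 1054, 1901, 1734 and 579 FPKM with saline, where 1 library was much lower than the others, and 430.4, 356, 406 and 408 with morphine (-1.57 ± 0.50 (SE), adjusted p = 0.0429). Rps4l (chr6:148354656-148355598) read 24.2, 27.2, 47.5 and 47.0 FPKM with saline and 17.2, 20.9, 20.5 and 15.8 with morphine (-0.88 ± 0.27 (SE), adjusted p = 0.038). As a pseudogene copy its reads can belong to Rps4x, which read 838, 1097, 569 and 528 FPKM with saline against 351, 309, 333 and 380.1 with morphine (-1.08 ± 0.40 (SE), adjusted p = 0.0745).

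The naive libraries lay beside the morphine libraries for these genes. They read 161 and 146 FPKM for Rpl18, 177 and 131 for Rpl6, 347 and 208 for Rpl10, 447 and 421 for Rplp1 and 14.1 and 21.7 for Rps4l. Each of these 10 values was below every fixed-saline value of its gene.

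**Figure D4:**
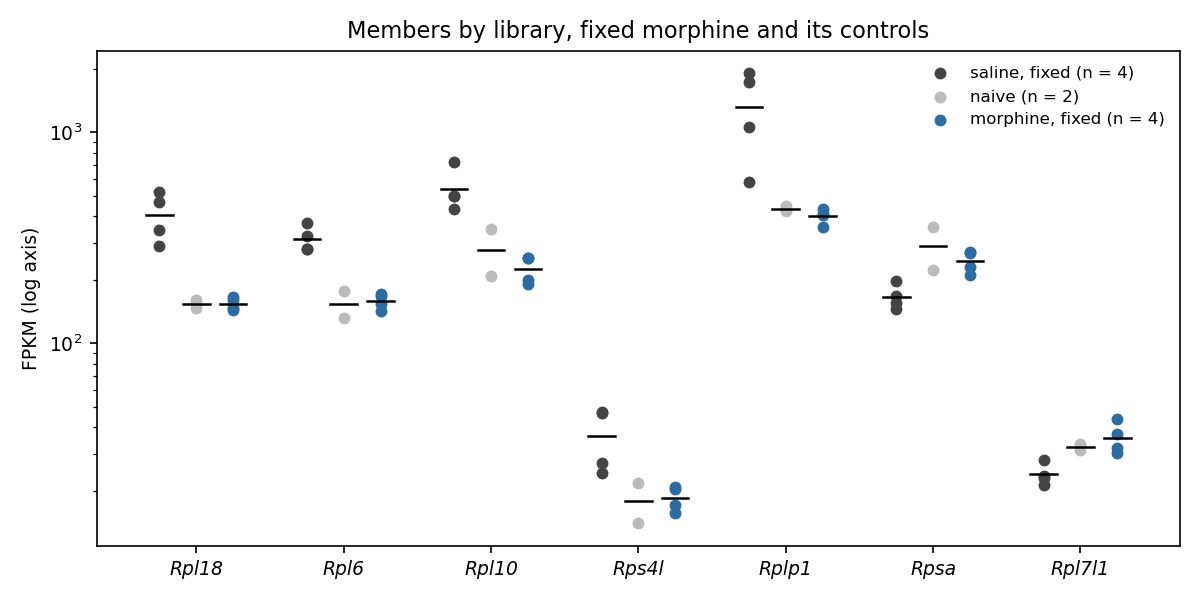
FPKM on a log axis (vertical) of 7 members (horizontal axis) in the fixed-saline (n = 4), naive (n = 2) and fixed-morphine (n = 4) libraries; points are libraries and lines are means. For the 5 members that fell, morphine and naive points lie below all saline points, and for Rpsa and Rpl7l1 above them.

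Among the members read in every comparison, Rpsa had 155, 197, 167 and 146 FPKM with saline and 209.7, 272, 269 and 229 with morphine, with no overlap, but did not pass (0.56 ± 0.20 (SE), adjusted p = 0.0617 by limma). Rpl7l1 had 23.2, 23.6, 21.3 and 28.2 FPKM with saline against 31.8, 37.2, 44.0 and 30.3 with morphine (0.55 ± 0.21 (SE), adjusted p = 0.0761). Rps6, the substrate of S6 kinases, had 238, 341, 245 and 269 FPKM with saline against 204, 174, 173 and 206 with morphine, all morphine values being lower (-0.52 ± 0.23 (SE), adjusted p = 0.132). Rpl11, which with Rpl5 and 5S RNA can bind Mdm2, was next after the called members (-1.21 ± 0.41 (SE), adjusted p = 0.055). Rplp0 (-0.26 ± 0.22 (SE), adjusted p = 0.43), Rplp2 (-0.43 ± 0.44 (SE), adjusted p = 0.518), Rpl38 (-0.98 ± 0.58 (SE), adjusted p = 0.243), Rps29 (-0.81 ± 0.54 (SE), adjusted p = 0.306), Rpl3 (0.51 ± 0.22 (SE), adjusted p = 0.109) and Rpl22 (-0.11 ± 0.31 (SE), adjusted p = 0.824) did not pass either. By coding length the median differences were -0.72, -0.41 and -0.30 for short, middle and long members, and 0, 5 and 8 members were positive. Some other comparisons kept this order of size, such as SNT 2 dpi against controls (1.19, 0.87 and 0.53). Others did not, such as SNT 7 dpi against controls (0.09, 0.28 and 0.36) and escalating morphine against its saline (-0.01, -0.04 and -0.09).

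**Figure D5:**
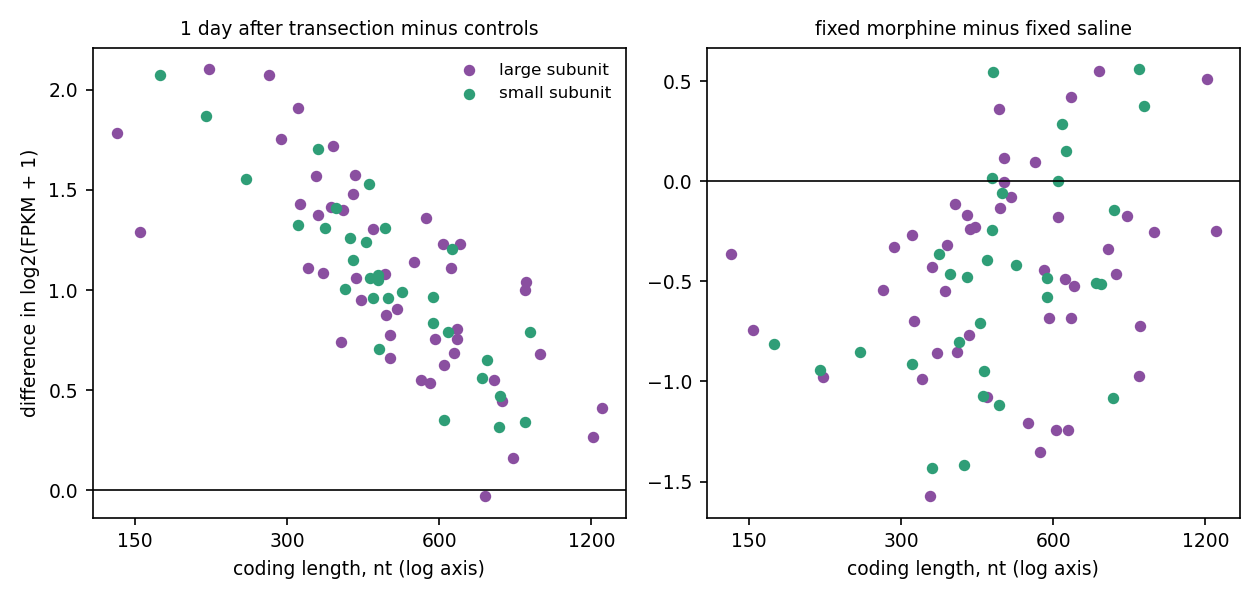
Difference in log2(FPKM + 1) (vertical) of each member against its coding length on a log axis (horizontal), for SNT 1 dpi minus controls (left) and fixed morphine minus fixed saline (right), large subunit in purple and small subunit in green. Shorter members lie farther from 0 on the left, where the medians of short, middle and long members are 1.42, 1.05 and 0.66; on the right they are -0.72, -0.41 and -0.30.

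How many members passed depended on single libraries and on scaling. The count of members called was 0 without saline replicate 5 or without morphine replicate 2, 1 without morphine replicate 3, and 3 without saline replicate 4 or 6 or without morphine replicate 1 or 4; without saline replicate 3 it was 4. All of these calls were lower except 1 of the 3 without saline replicate 4. Over these fits 4.69% to 13.8% of all genes were called higher and 1.74% to 4.6% lower. The split of higher to lower calls was 0 to 5 as deposited, 0 to 6 after median-ratio scaling, 4 to 4 after quantile normalization (Rpsa, Rpl3, Rps2 and Rpl14 higher) and 6 to 3 after TPM rescaling (these 4, Rpl7l1 and Rps18 higher). The shares of all genes called higher and lower were 8.84% and 6.66% after median-ratio scaling, 8.39% and 7.02% after quantile normalization, and 26% and 2.49% after TPM rescaling. Median-ratio, quantile and TPM scaling moved the median of all genes by -0.17, -0.23 and 0.32 log2 units, in that order. With array weights the split was 2 to 29, beside 28% of all genes higher and 8.95% lower. Implied depth was 1.97 to 8.59 M fragments in the saline libraries and 10.2 to 16.8 M in the morphine libraries, without overlap, and with depth as a covariate 0 members were called and the median was 0.28 (all genes 0.0085% higher and 0.0085% lower). Without the libraries under 3 M fragments 6 members were called lower and 1 higher, with a median of -0.44, beside 5.99% of all genes lower and 14.5% higher. The short-minus-long contrast of other genes also did not overlap, at 1.22 to 2.14 with saline and 0.547 to 0.787 with morphine, and with it as a covariate 0 members were called and the median was 0.62 (all genes 0.0085% in each direction). With detected genes as a covariate the values were 0 and 0.02 (all genes 0.017% in each direction). Depth and treatment cannot be told apart in these groups.

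Relative to the mean of the members in each library, only Rplp1 differed, lower by 1.09 ± 0.34 (SE) log2 units with an adjusted p of 0.0475 by limma. On this scale 5.63% of all genes were called higher and 0.357% lower.

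Genes that build ribosomes had mostly positive differences in the same comparison, unlike the members. Of 61 ribosome biogenesis genes, 11 rose and 1 fell (median 0.51), beside a background of 13.6% of genes higher and 4.46% lower. Utp20, a processing factor of the small subunit, was 4.29 ± 1.75 FPKM with morphine and 0.953 ± 0.365 with saline (SD, n = 4 each; 1.4 ± 0.27 (SE), adjusted p = 0.00742 by limma). Utp6, of the same processome, was 11.5 ± 3.52 and 3.72 ± 1.54 FPKM (1.43 ± 0.32 (SE), adjusted p = 0.0122). Rrp12 and Tsr1, which act in subunit maturation, gave 1.51 ± 0.40 (SE), adjusted p = 0.023 and 1.23 ± 0.33 (SE), adjusted p = 0.0244. Polr1d, a subunit shared by RNA polymerases I and III, was the 1 that fell (-0.78 ± 0.22 (SE), adjusted p = 0.0298). This count was 2 higher and 0 lower without saline replicate 5, morphine replicate 2 or morphine replicate 3, 3 and 0 without saline replicate 6, 24 and 0 after TPM rescaling, 6 and 1 after quantile normalization or median-ratio scaling, and 0 and 0 with the detected-genes, length or depth covariate. TPM rescaling called 3056 of all 11759 genes higher and 293 lower.

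Among translation factors, 4 of 41 initiation genes rose and 3 fell (median 0.20). Over all 11759 genes 1595 were called higher and 524 lower, and these lists were not tested against that background. Eif4g1, the scaffold of the cap-binding complex, was 41.1 ± 14.3 FPKM with morphine and 15.5 ± 4.07 with saline (1.32 ± 0.29 (SE), adjusted p = 0.0107), and the poly(A)-binding protein gene Pabpc1, itself a TOP mRNA, was 168 ± 27.9 and 75.9 ± 36.6 FPKM (1.26 ± 0.30 (SE), adjusted p = 0.0147). Eif3m fell (-0.69 ± 0.18 (SE), adjusted p = 0.0204). Of 10 elongation and termination genes 2 rose, Gspt1 (1.01 ± 0.23 (SE), adjusted p = 0.0135) and Eef2 (1.18 ± 0.34 (SE), adjusted p = 0.0296). Eef2, a classical TOP mRNA with a long coding sequence, was 444 ± 6.39 FPKM with morphine and 225 ± 129 with saline.

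Of 27 regulators of mTOR and TOP mRNAs, 3 rose and 2 fell (median 0.06), beside the same 1595 of 11759 genes higher and 524 lower. Larp1, the TOP mRNA-binding protein, was 23.7 ± 4.87 FPKM with morphine and 1.64 ± 0.458 with saline (3.22 ± 0.49 (SE), adjusted p = 0.00511 by limma). Larp4 (1.64 ± 0.28 (SE), adjusted p = 0.00606) and Rps6ka1 (0.65 ± 0.19 (SE), adjusted p = 0.0327) also rose. The translation inhibitor Pdcd4 fell (-0.85 ± 0.19 (SE), adjusted p = 0.0119), as did Eif4ebp2, the mTOR-controlled cap inhibitor, which is also among the initiation genes (-1.13 ± 0.28 (SE), adjusted p = 0.0179). Of 16 ribosome stress and surveillance genes, 3 rose and 2 fell. The stress transcription factor Atf4 fell from 68.6 ± 6.15 to 28.9 ± 0.848 FPKM (-1.21 ± 0.23 (SE), adjusted p = 0.00728), and its target Ddit3 from 28.1 ± 11.6 to 2.73 ± 5.45 FPKM (-3.89 ± 0.90 (SE), adjusted p = 0.0134). With morphine the SD of Ddit3 exceeded its mean, so its libraries lay far apart, some at or near 0, where a listed 0 can be a failed estimate. Hbs1l, Usp10 and Zfp598, which act on stalled ribosomes or collided ones, rose. Leaving out 1 library at a time, the initiation count ran from 2 higher and 0 lower (without morphine replicate 2) to 6 and 3 (without saline replicate 3 or morphine replicate 1). With TPM rescaling it was 19 and 1, where 3056 of all 11759 genes were called higher and 293 lower. The elongation count was 0 without morphine replicate 2, the regulator count 2 and 1, and the stress count 0 and 2. Without that library 552 of all genes were called higher and 205 lower.

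Other families of short proteins had mostly negative differences, as the members did. The calls below stand beside 1595 of 11759 genes higher and 524 lower, or 986 and 826 after quantile normalization. Of the 4 ribosomal proteins with other symbols, Fau, which encodes the ribosomal protein S30 fused to a ubiquitin-like domain, fell (319 ± 95.3 against 1105 ± 426 FPKM, -1.76 ± 0.47 (SE), adjusted p = 0.0228 by limma). Of 48 small oxidative phosphorylation subunits, 44 were negative (median -0.47) and 5 fell: Ndufb9, Ndufa2, Ndufb3, Cox6b1 and Cox7a2l. Mitochondrial ribosomal proteins were negative in 58 of 77 (median -0.25), with Mrpl43, Mrps6 and Mrpl9 falling and Mrps27 rising. The oxidative phosphorylation count was 0 without saline replicate 5 or morphine replicate 2, 1 without saline replicate 4 or morphine replicate 3, 2 without morphine replicate 4 and 3 without morphine replicate 1. For the mitochondrial ribosomal proteins it was 0 higher and 8 lower without saline replicate 3, 0 and 0 without saline replicate 6 or morphine replicate 2, and 0 and 10 after quantile normalization. Fau was not called without saline replicate 4 or 5 or morphine replicate 2 or 3. Neutrophil markers were negative in 10 of 10, with S100a8 (-3.14 ± 0.78 (SE), adjusted p = 0.0176) and Camp (-2.41 ± 0.77 (SE), adjusted p = 0.0442) falling, and their list mean was 6.38 to 9.71 with morphine against 8.04 to 10.4 with saline. Monocyte markers were negative in 3 of 5 (median -1.56, none called). Microglial markers had list means of 9.15 to 9.50 against 9.31 to 9.61, and of the 10 markers 2 rose and 1 fell. Neuron markers were positive in 6 of 6 (median 0.50), oligodendrocyte markers in 6 of 6 (0.35) and astrocyte markers in 5 of 6 (0.70), none called. In 3 further lists 1 marker fell: Pf4 of border macrophages (-1.91 ± 0.48 (SE), adjusted p = 0.0185 by limma), Cd79a of B cells (-1.48 ± 0.41 (SE), adjusted p = 0.0255) and Pecam1 of endothelium (-0.82 ± 0.24 (SE), adjusted p = 0.0324). The part of the marker differences in the member result was not tested.

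With escalating morphine the members centred near the saline level. Against escalating saline, 36 of 81 members were positive and the median was -0.04 (0.02 after TPM rescaling and 0.39 without morphine replicate 1), with no member called (background 0.034% higher, 0% lower). At an unadjusted p under 0.05, 2 members were lower, Rps27 and Rpl5, and 0 higher (all genes 4.52% and 14.7%). Rps27 was listed at 0 in all 3 morphine libraries and at 141, 89.7 and 289 FPKM in the saline libraries, the 1 member whose groups did not overlap (background 5.02% lower, 13.3% higher). Rpl5, the 5S RNA-binding subunit, read 57.0, 175 and 205 FPKM with morphine and 195, 279 and 330.1 with saline (-1.04 ± 0.42 (SE), adjusted p = 0.209 by limma). The 5 members that fell under fixed morphine had differences of -0.06 (Rpl18), -0.14 (Rpl6), -0.64 (Rpl10), -0.05 (Rps4l) and -0.06 (Rplp1). Their values split within the group. Rpl18 read 150.5, 500.1 and 518 FPKM, with replicate 1 at the level of fixed morphine and the other 2 within the range of fixed saline. Replicate 1 had an implied depth of 10.8 M fragments and a member mean of 6.70, and the others 2.65 and 2.41 M and member means of 8.09 and 8.02. Without the 6 libraries under 3 M fragments, which leaves 1 escalating-morphine library assumed to vary like the other groups, the median was -0.90 and 6 members were called lower, beside 1.11% of all genes lower and 5.6% higher. The median was 0.39 with detected genes as a covariate and 0.58 with array weights. All 10 neutrophil markers were negative (median -1.20), as were all 5 tested monocyte markers (-1.30), and their part was not tested.

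The difference between the schedules was itself tested. The morphine effect on the fixed schedule minus that on the escalating schedule had a median of -0.45 over the members, and no member passed (background 0.0085% higher, 0% lower). Before adjustment, at p under 0.05, 1 was higher and 3 lower (all genes 5.76% and 5.95%). Rpl7l1 had the lowest p (0.87 ± 0.31 (SE), adjusted p = 0.343 by limma), followed by Rps26 (-2.12 ± 0.82 (SE), adjusted p = 0.358) and Rpl18 (-1.29 ± 0.52 (SE), adjusted p = 0.367). Thus the fall of Rpl18 on the fixed schedule was not shown to differ from the escalating schedule. Without escalating-morphine replicate 1 the median was -0.84 with 4 members called lower and 1 higher, beside 1.72% and 2.02% of all genes, and with depth as a covariate it was 0.63.

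The kinds of control were compared with each other, fixed saline being the reference for fixed morphine. Naive libraries lay below the 7 saline libraries in 67 of 81 members (median -0.49), with none called (background 0.366% higher, 0.238% lower). In 15 members, 18.5%, both naive libraries lay below all saline libraries, against 6.07% of genes, and in 1, Rpl7l1, above (background 10.2%). With p under 0.05 unadjusted, 9 were lower and 0 higher (all genes 5.68% and 7.11%). The 3 lowest p-values belonged to Rpl18 (-1.28 ± 0.45 (SE), adjusted p = 0.185 by limma), Rpl6 (-1.03 ± 0.38 (SE), adjusted p = 0.219) and Rpl10 (-1.28 ± 0.50 (SE), adjusted p = 0.246). This comparison and that of fixed morphine share the fixed-saline libraries. Both naive libraries read lower for Rplp1, at 447 and 421 FPKM against 1054, 1901, 1734 and 579 on the fixed and 947, 725 and 1705 on the escalating schedule (-1.37 ± 0.58 (SE), adjusted p = 0.296). All 48 small oxidative phosphorylation subunits were negative (median -0.57, none called). Of the stress genes, Atf4 (-1.49 ± 0.29 (SE), adjusted p = 0.0215) and Ddit3, listed at 0 in both naive libraries, were lower. The short-minus-long contrast of other genes was 0.846 to 1.16 in naive and 1.22 to 2.38 in saline libraries, without overlap. Neutrophil markers were negative in 10 of 10 (median -1.44), monocyte markers in 5 of 5 (-1.30) and neuron markers in 6 of 6 (-0.39), none called. The part of the length contrast and of these markers was not tested. No member passed between fixed and escalating saline (background 0% either way), where the median was -0.20 and 0.11 without escalating-saline replicate 9. At an unadjusted p under 0.05, 0 were higher and 0 lower (all genes 6.46% and 2.43%), and groups overlapped in every member (background 6.93% higher, 2.76% lower), with Rpl39l at the lowest p (-0.80 ± 0.41 (SE), adjusted p = 0.59).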

How the data were processed

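RNA-seq (Smart-Seq2 libraries) of CD11b-selected spinal microglia was deposited as 1 table of FPKM values, which the authors computed per gene. The submitters' processing notes name the mm10 build, DESeq2, the aligner HISAT2 (2.0.5.1), the counter featureCounts (1.4.6) and Cufflinks (2.2.1); which tool made the FPKM, its annotation and its filters are not given in the sources used here. Rows with repeated symbols (826 of 24888) were left out. Genes at 1 FPKM or more in at least 2 of 30 libraries (11759) were tested on log2(FPKM + 1), which understates the change of low genes, with limma 3.58.1 (R 4.3.3, trended variance) and Benjamini-Hochberg adjustment over all genes at 0.05. Injury comparisons came from 1 fit of 14 injury and 9 control libraries and share those controls. Morphine comparisons came from 1 fit of both schedules with their saline groups, and control comparisons from a fit of all 30 libraries. Fixed morphine and naive libraries share the fixed-saline reference. The script was tested on simulated data. Depth was estimated from the steps of low FPKM values.

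Members and gene lists were chosen with earlier results of these data known. Named members are those called, or else the 5 with the lowest p, the extremes in level and in spread, and a fixed set including Rps29, Rpl38, Rplp0, Rpsa, Rpl3 and Rpl7l1. Of each gene list up to 4 called genes were named. Others (Polr1d, Eef2, Eif3m, the fifth called gene of a list, and members named for groups that do not overlap) were named after their values were seen. Alternatives were the pseudocount, filters, scalings, array weights, covariates, a replicate block, values relative to the member mean, other control sets and leaving out each library. Rat cultures of the series were not analysed here. Values of a few named genes are not reported here.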

Additional observations from a re-analysis of the deposited data

Results flagged for a closer look

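Of 63 sets of member values in groups of 4 to 10 libraries, 1 held a library that stood apart from the others. Rpl39l, the paralog of Rpl39, read 3.52 FPKM in escalating-saline replicate 9, while the other controls lay between 0 and 1.13 FPKM, and on the log2(FPKM + 1) scale, on which the values were screened, the gap to the next control was 0.5 of the whole range. Chance alone sets apart about 1 in 20 such groups.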

How the results depend on the processing

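Medians below are of the member differences (log2), counts are of members called, and the cause of each change was not tested. Outside the fits that leave out 1 library, 392 of 427 such values stayed within the spread or within 1.5 times the count, and no member reversed a call. This tally includes counts of 0 in both fits, and the setting without Rps27 and Rpl30 re-used the main fit. For SNT 4 dpi, CCI 2 and 7 dpi and SNI 7 dpi, the replicate block repeated the medians against naive libraries alone. Only members called in the main fit, those of fixed morphine, could reverse a call. The tally therefore does not measure robustness. Of 206 medians 34 changed sign, 23 of them within the spread, among them CCI 2 and 7 dpi and SNT 4 dpi against naive libraries alone (0.05, 0.01 and 0.19) and SNT 7 dpi after quantile normalization (-0.01). For fixed morphine the count was 2, both lower, without a filter on low values (7% of all genes higher, 2.18% lower). It was 8 after quantile normalization (4 higher, 4 lower), 9 after TPM rescaling (6 higher, 3 lower), 31 with array weights (2 higher, 29 lower) and 1, lower, relative to the member mean, with the shares of all genes given above, and 0 with the detected-genes, length or depth covariate, where the median was 0.019, 0.62 and 0.28. For escalating morphine the count was 1, lower, relative to the member mean (Rps27, listed at 0). In that fit 2 of all 11759 genes were called higher and 1 lower. The escalating-morphine median was -0.90 without the libraries under 3 M implied fragments and 0.69 with the length covariate. The difference between schedules had 13 members called (1 higher, 12 lower, all genes 2.99% and 2.81%) and a median of -1.05 with array weights, and a median of 0.63 with the depth covariate and 0.58 without the shallow libraries. For naive against saline, array weights gave 7 calls, all lower (all genes 4.18% lower, 6.01% higher), the detected-genes covariate 1, lower (0.774% and 1.78%), and the length covariate a median of 0.24. Among injuries, array weights gave 1 call, lower, for CCI 7 dpi (all genes 1.43% lower, 7.65% higher). The detected-genes covariate gave medians of 0.25 for SNT 1 dpi and -0.19 for CCI against SNI at 7 dpi, and median-ratio scaling -0.57 for the latter. The length covariate gave 0.47 for SNT 1 dpi, 0.23 for CCI 2 dpi, 0.25 for CCI 7 dpi, 0.51 for SNI 7 dpi, 0.26 for SNT against CCI at 2 dpi and -0.26 for CCI against SNI. Without the 3 libraries with the fewest detected genes the median was 0.27 for SNT 2 dpi and -0.69 for SNT 7 dpi.

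Leaving out 1 library at a time, counts ran from 0 to 4 for fixed morphine, 0 to 5 for the difference between schedules, 0 to 7 for SNT 1 dpi, 0 to 18 for SNT 2 dpi, 0 to 5 for SNT 7 dpi, 0 to 26 for SNT against CCI at 2 dpi and 0 to 28 at 7 dpi; the shares of all genes in these fits stand beside the counts above. Medians ran from 0.27 to 1.46 for SNT 2 dpi, -0.69 to 1.30 for SNT 7 dpi, -0.33 to 1.62 for SNT against CCI at 7 dpi and -0.45 to -0.25 for CCI against SNI.

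Replicate numbers gave no clear sign of pairing: deviations of the 93 same-numbered pairs correlated at -0.64 to 0.39, 49 of them negative. Between groups of 2 libraries both numbers give the same correlation, so many values are counted again, and libraries are re-used. These values cannot decide whether the numbers paired the samples. With the number as a replicate block, 0 members were called for fixed morphine, beside 0 of all 11759 genes in either direction. No paired analysis was possible because the groups share fewer than 2 numbers in the escalating-morphine, schedule-difference, naive against saline and saline against saline comparisons. The covariates for length and depth, the fits without shallow libraries and the tally without Rps27 and Rpl30 were chosen after seeing the data. The part of depth in the power of the test was not tested. In data simulated for fixed morphine over 11759 genes, the test recovered 14 of 100 genes changed by 1 log2 unit and 74 of 100 changed by 2, with 8 false calls, so a member that did not pass was not shown to be unchanged.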
